A study of Mus musculus with 18 samples.

Results

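The genes described here belong to MHC class II antigen presentation and were followed across the dura mater of mice with and without mast cells, naive or after stroke. They are 8 of the 19937 genes that the array measured with a probe set of 1 gene symbol: H2-Aa, H2-Ab1, H2-Eb1, H2-DMa, Cd74, Ciita, Cd86 and Flt3. Each was matched by its symbol in the probe annotation, and each had exactly 1 probe set among 21640 such probe sets and 34760 in all. The dura is the outer membrane around the brain, and it holds resident immune cells. Each of the 18 arrays carried RNA from the dura of 1 male mouse, and the groups held 3 mice each.

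The mice came in 3 categories, all on the WBB6F1 background and 17 to 21 weeks old. Engrafted mice were of the Kit W/W-v genotype and had been given mast cells through a vein 8 to 10 weeks earlier. Mast cell-deficient mice carried the same pair of Kit alleles, W and W-v, and had no transfer; Kit is the growth factor receptor on which mast cells depend. Wild-type mice were Kit +/+ with no transfer. Within each category, stroke mice had the middle cerebral artery blocked by a filament for 30 minutes and gave their dura 2 days later, and naive mice of matched age had no stroke. Sham-operated mice were not analysed here, so a stroke difference includes any effect of the operation. The Kit alleles act in every Kit-dependent cell, so a difference between deficient and wild-type dura is one of genotype, of which mast cells are a part. All mice were perfused through the heart with cold saline before the dura was taken.

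MHC class II molecules display peptides from proteins taken up by a cell to CD4+ T cells. They are paired alpha and beta chains, made mainly by dendritic cells, B cells and macrophages, and assembled with the invariant chain, which holds the peptide groove closed until H2-DM exchanges its remnant for a peptide. The transactivator CIITA is recruited to conserved X and Y boxes in the promoters of these genes and sets their transcription together. In the dura, such antigen-presenting cells lie along the sinuses and vessels, where they sample antigens that drain from the brain.

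Values are log2 probe set values, on which a difference of 1 is a doubling. Differences were tested with limma over all 21640 probe sets of 1 symbol, and a gene is said to have risen or fallen where the p adjusted by Benjamini and Hochberg was under 0.05. A level of one probe set cannot be set against that of another, so levels are compared between arrays only. All 8 members lay above the lower quartile of the array on all 18 arrays. Array medians were 7.77 to 7.91, and arrays of a group correlated with r of 0.985 to 0.995. The 9 genes of a dural fibroblast list, which checks the tissue label, had a mean level of 11.94 to 12.48 on every array. The 9 mast cell genes averaged 6.34 to 6.52 in deficient dura and 7.65 to 8.76 in engrafted and wild-type dura. Choroid plexus genes ranged from 8.43 to 12.04, and the 5 arrays with the lowest Ttr, a choroid plexus gene, were wild-type stroke 2, deficient stroke 2, deficient naive 1 and 3 and engrafted naive 3.

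The promoters of the chain genes are shown first, since the transactivator's boxes are what these genes are known to share. The RefSeq promoter table (GRCm38.p6) held 4 of the 8 members, with 5 promoters. Sequences run 5′ to 3′ along the gene's strand over the 150 bases before its start. Capitals mark the core of the Y box, ATTGG or its reverse complement CCAAT, and the X box, searched by its published consensus with at most 1 mismatch.
H2-Aa promoter, chr17:34287824-34287973, minus strand: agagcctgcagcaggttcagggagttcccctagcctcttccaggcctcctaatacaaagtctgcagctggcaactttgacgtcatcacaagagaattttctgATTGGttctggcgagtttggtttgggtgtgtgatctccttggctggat
H2-Eb1 promoter, chr17:34305717-34305866, plus strand: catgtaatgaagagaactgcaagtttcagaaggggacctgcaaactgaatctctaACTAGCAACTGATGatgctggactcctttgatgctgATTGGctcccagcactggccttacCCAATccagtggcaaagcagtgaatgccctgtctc
Flt3 promoter, chr5:147400490-147400639, minus strand: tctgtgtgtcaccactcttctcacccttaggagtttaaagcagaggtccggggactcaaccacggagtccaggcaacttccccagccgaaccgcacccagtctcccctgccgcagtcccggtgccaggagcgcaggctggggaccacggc
Flt3, the receptor for a growth factor of dendritic cell precursors, is shown as the member in whose window the search matched neither box. H2-Aa has a Y box core 48 to 44 bases before its start. H2-Eb1 has one 59 to 55 bases before its start, another on the minus strand 35 to 31 bases before it, and an X box 95 to 82 bases before it. Searched on both strands over 250 bases, 3 of these 4 members had a Y box core in at least 1 promoter, and 1 had an X box. These counts are by gene, whereas the shares below are by promoter, and H2-DMa matched at 1 of its 2 promoters. H2-DMa had its Y box core at 198 to 194 bases before the second of its starts, outside the bases printed for the others. Of 32851 promoters in the table, 33.8% held the Y box core, 0.569% the X box and 0.213% both, so the Y box core alone is common. All 5 other class II genes in the table (H2-Oa, H2-Ob, H2-Eb2, H2-DMb1 and H2-DMb2) held a Y box core, and 4 of the 5 held an X box. Both motifs do not overlap at H2-Eb1. A match describes letters only and is not a binding site. A window with no match, such as that of H2-Aa for the X box, may still hold a more diverged box. In the order of the RefSeq annotation, H2-DMa, H2-Ab1, H2-Aa and H2-Eb1 lie along chromosome 17 with H2-Oa, H2-DMb2, H2-DMb1, H2-Ob and H2-Eb2, whereas Ciita and Cd86 lie on chromosome 16, Flt3 on 5 and Cd74 on 18.

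The first question was how stroke changed these genes in wild-type dura. The chain genes and Cd74 fell: 4 of the 8 members passed and all 4 were lower, against 4.63% of all probe sets called lower. H2-Aa, the alpha chain of I-A, had 10.94, 10.84 and 10.65 after stroke, against 11.68, 11.59 and 11.36 in naive dura. Every stroke array lay below every naive array, and the difference was -0.73 ± 0.13 (SE), a 1.66-fold lower level (adjusted p = 0.00199). H2-Ab1, the beta chain that pairs with it, had 10.85, 10.71 and 10.54 after stroke, against 11.39, 11.51 and 11.25 in naive dura. It was 1.61-fold lower, with the groups apart (-0.69 ± 0.13, adjusted p = 0.00255). H2-Eb1, the beta chain of I-E, had 10.84, 10.66 and 10.54 after stroke, against 11.31, 11.29 and 11.11 in naive dura. It was 1.47-fold lower (-0.56 ± 0.13, adjusted p = 0.01), again with no overlap. Cd74, the invariant chain that guides the chains to the peptide-loading compartment, had 11.17, 10.86 and 10.71 after stroke, against 11.63, 11.51 and 11.37 in naive dura. It was 1.5-fold lower (-0.59 ± 0.16, adjusted p = 0.0291). The calls of H2-Aa and H2-Ab1 held under every alternative run. That of Cd74 was lost without wild-type naive array 1 or 2 (adjusted p = 0.0833 and 0.0735), without wild-type stroke array 2 or 3 (0.0855 and 0.118) and without the 5 arrays lowest in Ttr (0.0705). That of H2-Eb1 was lost without wild-type stroke array 3 (adjusted p = 0.0509), which left 2 members called.

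The other 4 members did not pass in wild type. H2-DMa, the alpha chain of the peptide exchanger, had 8.85, 8.72 and 8.61 after stroke, against 9.14, 9.10 and 9.05 in naive dura, and its groups did not overlap (-0.37 ± 0.12, adjusted p = 0.0588). With only the wild-type arrays in the fit its adjusted p was 0.0466. Cd86, a costimulatory ligand for CD28, had 7.73, 7.53 and 7.64 after stroke, against 7.70, 8.41 and 8.16 in naive dura, where 1 naive array lay among the stroke arrays (-0.46 ± 0.17, adjusted p = 0.0989). It passed in 1 of 15 alternative runs. Leaving out 1 array at a time gave Cd86 differences of -0.65 to -0.30 and adjusted p of 0.0206 to 0.31. Ciita, the transactivator, differed by -0.18 ± 0.12 (adjusted p = 0.341) with overlapping groups, and Flt3 by -0.19 ± 0.10 (adjusted p = 0.279), also overlapping. The interval for Ciita was -0.43 to 0.06, beside -1.01 to -0.46 for H2-Aa. Whether these genes fell by different amounts was not tested. The median over the 8 members was -0.51, beside 0.01 over all probe sets tested, and 5 of 8 members had every stroke array below every naive array, beside 14.2% of all probe sets. In bulk dura, fewer cells that make a transcript and less of it per cell cannot be told apart.

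**Figure D1:**
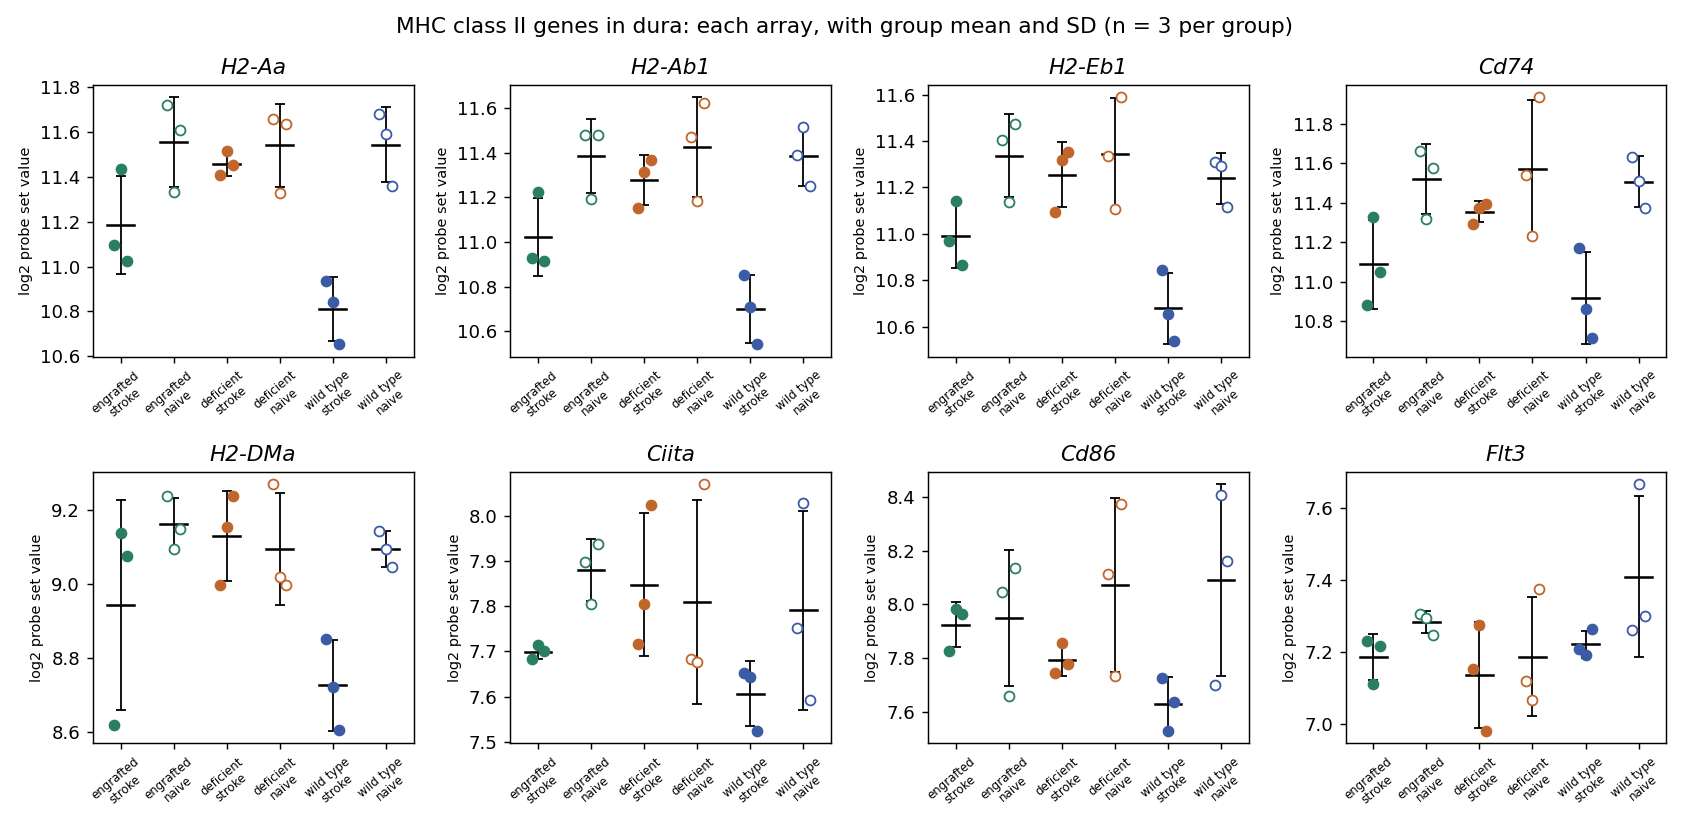
Log2 probe set values (vertical axes) of the 8 members in each of 6 groups (horizontal axes); points are arrays, bars the group mean with SD (n = 3). Wild-type stroke arrays are lowest for H2-Aa, between 10.65 and 10.94, whereas the wild-type naive arrays run from 11.36 to 11.68.

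Mast cell-deficient dura was asked the same question, and 0 members passed in limma, beside 0.25% of all probe sets. At an unadjusted p under 0.05 there were also 0 members, beside 13.5% of all probe sets. H2-Aa had 11.41, 11.51 and 11.45 after stroke, against 11.66, 11.33 and 11.64 in naive deficient dura. Its groups overlapped, and the difference of -0.08 ± 0.13 (adjusted p = 0.78) had an interval from -0.36 to 0.19. Cd74 had 11.29, 11.37 and 11.40 after stroke, against 11.54, 11.23 and 11.93 in naive dura (-0.22 ± 0.16, adjusted p = 0.548), with the widest naive spread of the 4 genes that passed in wild type. H2-Ab1 differed by -0.15 ± 0.13 (adjusted p = 0.596) and H2-Eb1 by -0.09 ± 0.13 (adjusted p = 0.755), both with overlapping arrays. Cd86 stood at -0.28 ± 0.17 (adjusted p = 0.472), H2-DMa at 0.04 ± 0.12 (adjusted p = 0.902), Ciita at 0.04 ± 0.12 (adjusted p = 0.889) and Flt3 at -0.05 ± 0.10 (adjusted p = 0.835). The median was -0.09, and 0 of 8 members had stroke arrays all below naive arrays, beside 5.92% of all probe sets. Without the 5 arrays lowest in Ttr, which leaves naive deficient dura with 1 array, H2-Aa, H2-Ab1, H2-Eb1, Cd74 and Cd86 were slightly higher after stroke, by 0.10, 0.08, 0.12, 0.11 and 0.03.

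In engrafted dura 0 members passed either, beside 1.11% of all probe sets. At an unadjusted p under 0.05 there were 4, beside 10.9% of all probe sets. H2-Aa had 11.10, 11.43 and 11.03 after stroke, against 11.72, 11.33 and 11.61 in naive engrafted dura (-0.37 ± 0.13, adjusted p = 0.247). Stroke array 2 lay above naive array 2, so the groups overlapped. Cd74 had 10.88, 11.33 and 11.05 after stroke, against 11.66, 11.32 and 11.58 in naive dura (-0.43 ± 0.16, adjusted p = 0.284). H2-Ab1 and H2-Eb1 had differences of -0.36 ± 0.13 and -0.34 ± 0.13 (adjusted p = 0.239 and 0.274). All 8 differences were below 0, with a median of -0.28. Ciita, with 7.68, 7.71 and 7.70 after stroke against 7.90, 7.80 and 7.94 in naive dura, had every stroke array below every naive one, as did Flt3, whose highest stroke array was 7.23 beside a lowest naive array of 7.25. Those 2 of 8 stand beside 7.6% of all probe sets, and neither passed (Ciita -0.18 ± 0.12, adjusted p = 0.623). The remaining engrafted differences were -0.22 ± 0.12 for H2-DMa and -0.02 ± 0.17 for Cd86.

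**Figure D2:**
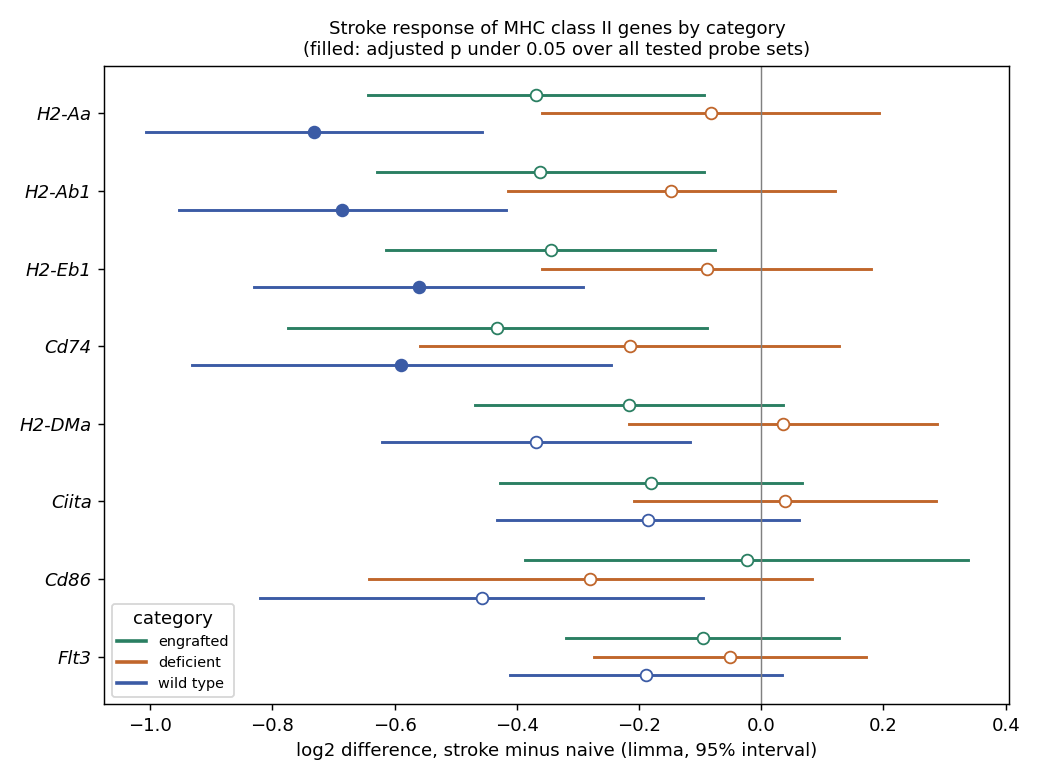
Log2 difference of stroke minus naive (horizontal axis, with 95% interval) for each member (rows) in engrafted, deficient and wild-type dura; filled points passed in limma. H2-Aa is -0.37 in engrafted, -0.08 in deficient and -0.73 in wild-type dura, and the 4 filled points are all wild type.

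Whether the response itself differed between categories was tested as a difference of 2 stroke responses. For deficient minus wild type, 0 members passed, beside 0.351% of all probe sets. At an unadjusted p under 0.05 there were 4 of 8, beside 7.35%. All 8 differences were above 0, with a median of 0.39 beside 0.03 over all probe sets. H2-Aa differed by 0.65 ± 0.18, with an interval of 0.26 to 1.04 (adjusted p = 0.224), H2-Ab1 by 0.54 ± 0.18 (adjusted p = 0.355), H2-Eb1 by 0.47 ± 0.18 (adjusted p = 0.489) and Cd74 by 0.37 ± 0.23 (adjusted p = 0.846). The 4 calls in wild type and 0 in deficient dura therefore do not show that the responses differ. For engrafted minus wild type, 0 members passed, beside 0.106% of all probe sets, and 0 at an unadjusted p under 0.05, beside 13.2%, with a median of 0.19. For engrafted minus deficient the count was 0 by both measures, beside 0.00462% and 9.69% of all probe sets, with a median of -0.22. These 3 differences share groups and are not independent of each other. Averaged over the 3 categories, H2-Aa, H2-Ab1, H2-Eb1 and Cd74 fell with stroke, by 0.39, 0.40, 0.33 and 0.41 on the log2 scale (adjusted p = 0.00245, 0.00182, 0.00695 and 0.00796). These are 4 of 8 members, beside 5.42% of all probe sets called lower. The wild-type arrays enter this average, and 0 members passed without the 5 arrays lowest in Ttr.

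In dura with no stroke, the categories were close for these genes. Deficient against wild type gave 0 members, beside 0.0185% of all probe sets, as did engrafted against deficient, again beside 0.0185%. Engrafted against wild type gave 0 members, beside 0% of all probe sets. At an unadjusted p under 0.05 limma also gave 0 members in each of the 3 comparisons. All probe sets at that level came to 6.82% for deficient against wild type, 4.7% for engrafted against deficient and 19.1% for engrafted against wild type. Over the 4 genes H2-Aa, H2-Ab1, H2-Eb1 and Cd74, the 12 differences ran from -0.05 to 0.11, and their intervals together from -0.39 to 0.41. A naive difference between categories as large as the wild-type fall of H2-Aa lay outside these intervals. The largest naive difference of any member was that of Flt3, which had 7.12, 7.07 and 7.38 in deficient dura, against 7.26, 7.67 and 7.30 in wild-type dura (-0.22 ± 0.10, adjusted p = 0.732).

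After stroke, the class II chains were higher in deficient than in wild-type dura. H2-Aa, H2-Ab1 and H2-Eb1 rose, 3 of 8 members, beside 0.642% of all probe sets called higher. The stroke arrays given above for H2-Aa were 11.41, 11.51 and 11.45 in deficient dura, against 10.94, 10.84 and 10.65 in wild-type dura. The difference was 0.65 ± 0.13, a 1.57-fold higher level (adjusted p = 0.0133). H2-Ab1 had 11.15, 11.31 and 11.37 in deficient dura, against 10.85, 10.71 and 10.54 in wild-type dura (0.58 ± 0.13, adjusted p = 0.0218). H2-Eb1 had 11.10, 11.32 and 11.35 in deficient dura, against 10.84, 10.66 and 10.54 in wild-type dura (0.58 ± 0.13, adjusted p = 0.0233). Both were 1.49-fold higher. All members but Flt3, 7 of 8, had every deficient array above every wild-type array, beside 9.46% of all probe sets. Cd74 (0.44 ± 0.16, adjusted p = 0.204), H2-DMa (0.40 ± 0.12, adjusted p = 0.0963), Ciita (0.24 ± 0.12, adjusted p = 0.356) and Cd86 (0.16 ± 0.17, adjusted p = 0.701) did not pass, nor did Flt3 (-0.09 ± 0.10, adjusted p = 0.744). H2-DMa passed in 1 of 15 alternative runs (adjusted p = 0.0438). The median was 0.42. These 3 calls rest on few arrays: 0 members passed without wild-type stroke array 3, without deficient stroke array 2 or without deficient stroke array 3, and 1 without wild-type stroke array 2. With only these 6 arrays in the fit 1 member passed, and without the 5 arrays lowest in Ttr 0 did. The wild-type stroke arrays are the same as in the stroke comparison above, so these differences are not separate evidence from it.

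After stroke, the means of the chain genes in engrafted dura lay between those of deficient and wild-type dura, and neither gap passed. Against wild type, 0 members passed, beside 0.411% of all probe sets, and 3 members had an unadjusted p under 0.05, beside 11.6%. H2-Aa was 0.37 ± 0.13 above wild type (adjusted p = 0.234), H2-Ab1 0.32 ± 0.13 (adjusted p = 0.302), H2-Eb1 0.31 ± 0.13 (adjusted p = 0.326) and Cd74 0.17 ± 0.16 (adjusted p = 0.763). H2-Aa, H2-Ab1, H2-Eb1, Ciita and Cd86 had every engrafted array above every wild-type one, beside 7.96% of all probe sets. Against deficient dura, 0 members passed, beside 0.0277% of all probe sets, and 0 at an unadjusted p under 0.05, beside 6.28%. H2-Aa stood 0.27 below deficient dura (adjusted p = 0.797), and Ciita alone had every engrafted array below every deficient one, beside 6.1% of all probe sets. Over the 6 groups, wild-type stroke had the lowest mean for 7 of 8 members, and for Flt3 deficient stroke was lowest. Engrafted stroke was next to lowest for 7 of 8. For H2-Aa the group means were 10.81 ± 0.14 (SD, n = 3) in wild-type stroke, 11.19 ± 0.22 in engrafted stroke, 11.46 ± 0.05 in deficient stroke, 11.54 ± 0.19 in naive deficient, 11.54 ± 0.17 in naive wild-type and 11.55 ± 0.20 in naive engrafted dura. The last 4 of these did not differ beyond their spread. Ciita spanned a narrower band, with means from 7.61 ± 0.07 in wild-type stroke to 7.88 ± 0.07 in naive engrafted dura, and none of its comparisons passed.

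Across arrays, the 4 genes H2-Aa, H2-Ab1, H2-Eb1 and Cd74 moved together also within groups. With each group's mean removed, pairs of the 4 correlated with r of 0.83 to 0.95 over 18 arrays. These are descriptions, since points share an array and its tissue composition. Against the mean of the 4, Ciita correlated with r of 0.64, Cd86 of 0.55, H2-DMa of 0.50 and Flt3 of 0.19 on the same measure. Flt3 thus followed the others least, while its own r with Cd86 was 0.61 and with H2-DMa -0.28. Among the genes outside the 8, H2-Ea followed the mean of the 4 most closely over the raw values, with r of 0.97 over 18 arrays, ahead of the tendon gene Tnmd (0.94) and the dendritic cell and macrophage lectins Clec10a and Mgl2 (both 0.93). Cpz, Tpst1, Cpxm2 and Itgbl1 had r of 0.92 to 0.93. H2-Ea is annotated in RefSeq as a transcribed pseudogene of the C57BL/6J reference, whereas other strains make the I-E alpha chain from it. Its levels were 10.68, 10.58 and 10.42 in wild-type stroke dura, against 11.36, 11.50 and 11.19 in naive wild-type dura. These did not overlap, beside 14.2% of all probe sets that were lower with no overlap. Since H2-Ea was picked for following the 4 genes over these same arrays, its drop is not separate evidence of theirs. With group means removed, the closest genes were Foxp2 and Nlrc5, the transactivator of MHC class I genes (r of 0.93 for both), Cxcr6 (0.92), Mgl2 (0.91), H2-Ea and Ms4a7 (both 0.90), Mir7-1 (0.90) and Gbp4 (0.89). Mgl2 and Clec10a are near-identical neighbours, so signal of one may be shared with the other.

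**Figure D3:**
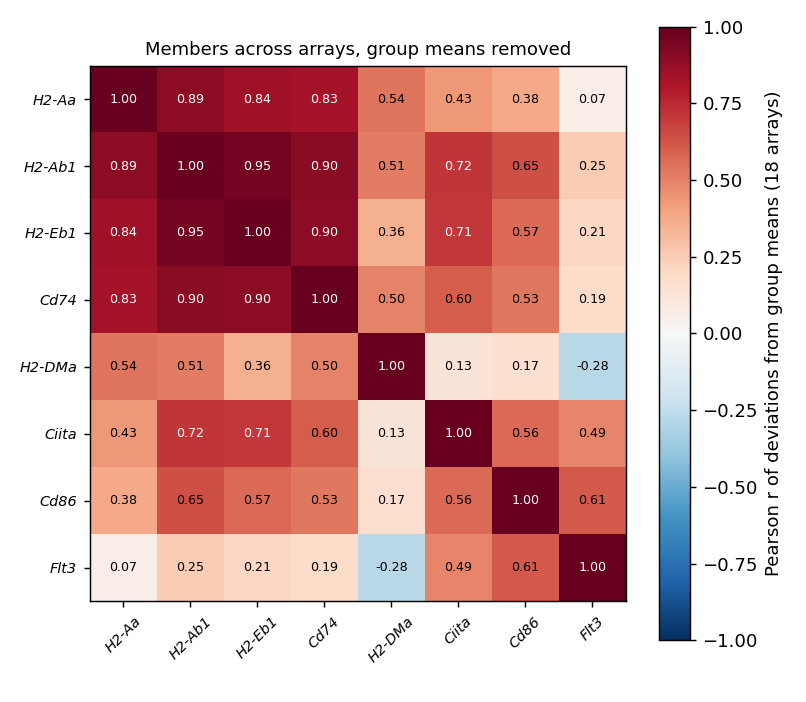
Pearson r between members (rows and columns) of each array's deviation from its group mean, over 18 arrays (colour scale). H2-Aa, H2-Ab1, H2-Eb1 and Cd74 form a block of 0.83 to 0.95, and Flt3 and H2-DMa have -0.28.

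The other steps of the pathway were taken from further lists, in wild-type dura after stroke against naive. Of 12 measured genes of processing and loading, 3 rose and 0 fell, with a median of 0.07. Its class II genes H2-Oa, H2-Ob and H2-Eb2 had lower means after stroke and did not pass. These were 7.01, 7.27 and 6.58, against 7.11, 7.53 and 6.71 in naive dura. Of all probe sets, 6.24% were called higher and, as above, 4.63% lower. Ifi30, the thiol reductase that opens disulfide bonds of antigens, had 10.50, 10.67 and 10.29 after stroke, against 9.95, 9.93 and 9.79 in naive dura (0.60, adjusted p = 0.016). The lysosomal proteases Ctsl and Lgmn, which cut the invariant chain and antigens, rose by 0.30 (adjusted p = 0.0153) and 0.24 (adjusted p = 0.0144). Each of these 3 calls was lost without at least 1 array: Ifi30 without naive array 3 or stroke array 2 (adjusted p = 0.0673 and 0.0733), Ctsl without stroke array 3 (0.0548) or without the first or the third naive array (0.0601 and 0.0528) and Lgmn without naive array 3 or stroke array 2 (0.0523 and 0.0557). When the choroid plexus and neuron scores were covariates, all 3 were lost too, at 0.36, 0.22 and 0.16 (adjusted p = 0.169, 0.199 and 0.222). Over 15 alternative runs the calls of Ifi30, Ctsl and Lgmn were lost in 4, 6 and 5. The class II transactivation list holds transcription factors of these genes and Socs1, a suppressor of cytokine signalling. Of its 13 measured genes, 2 rose and 0 fell. Spi1 (PU.1), a master factor of myeloid cells that also drives Ciita in dendritic cells, had 9.72, 9.79 and 9.59 after stroke, against 8.98, 9.01 and 8.78 in naive dura (0.78, adjusted p = 0.00451). This call held without any single array and was lost with the covariates (0.55, adjusted p = 0.0916). Prdm1, the repressor Blimp-1, which silences Ciita in plasma cells, rose by 0.56 (adjusted p = 0.0121), which missed the threshold without stroke array 2 (0.06), without naive array 3 (0.0663) and with the covariates (0.139). The Prdm1 call was lost in 5 of 15 alternative runs. Rfx5, a subunit of the factor that binds the X box, was at 0.12 (adjusted p = 0.415). In the interferon gamma list, 0 of 11 rose and 1 fell. Cxcl9, a chemokine induced by interferon gamma, had 7.67, 7.40 and 7.80 after stroke, against 8.40, 9.06 and 8.60 in naive dura (-1.06, adjusted p = 0.0149). The Cxcl9 call was lost without naive array 2 (0.0719) or stroke array 2 (0.0614), without the arrays lowest in Ttr (0.11) and with the covariates (0.072). Of 10 MHC class I genes 0 passed, with a median of 0.06.

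The costimulation and checkpoint list holds costimulatory genes and inhibitory ones such as Cd274 and Ctla4. Of 14 measured, 12 did not pass, 1 rose and 1 fell in wild-type dura, shares near those of all probe sets given above. Cd80, the relative of Cd86 that binds the same receptors, had 9.33, 9.35 and 9.45 after stroke, against 8.38, 8.28 and 8.40 in naive dura (1.03 ± 0.13, adjusted p = 0.000163). Its direction was thus opposite to the value of -0.46 for Cd86, which did not pass. Cd83, a dendritic cell protein that protects class II and Cd86 from breakdown, had 8.60, 8.59 and 8.61 after stroke, against 9.33, 9.57 and 9.59 in naive dura (-0.90 ± 0.08, adjusted p = 6.93e-06). Both calls held under every alternative run. Cd83 fell in the other categories too. It had 8.55, 8.82 and 8.77 in engrafted stroke, against 9.26, 9.20 and 9.13 in naive engrafted dura (-0.48, adjusted p = 0.00919). In deficient dura it had 8.70, 8.81 and 8.80 after stroke, against 9.42, 9.26 and 9.38 in naive dura (-0.58, adjusted p = 0.00818). Cd80 rose in engrafted dura by 0.72 (adjusted p = 0.0167), and in deficient dura it was at 0.48 (adjusted p = 0.18). The Cd83 calls were lost without engrafted naive array 1 (adjusted p = 0.055) and without deficient stroke array 1 (0.056), with only the compared groups in the fit (0.128 in engrafted and 0.173 in deficient dura) and when the 5 low-Ttr arrays were dropped (0.0592 and 0.177). That of Cd80 in engrafted dura was lost without stroke array 2 (0.0878), without the first or the second naive array (0.0517 and 0.127), in the fit to engrafted arrays alone (0.197) and when the 5 low-Ttr arrays were dropped (0.059). Neither gene's response passed the test of a difference between deficient and wild-type dura (adjusted p = 0.389 for Cd80 and 0.431 for Cd83).

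Markers of the cells that can make class II were measured beside the chains. Of 18 dendritic cell genes, 1 rose and 5 fell in wild-type dura after stroke, with 12 not passing and a median of -0.06. Cd209a, a lectin of monocyte-derived and conventional dendritic cells, had 9.80, 9.27 and 9.52 after stroke, against 10.42, 10.59 and 10.35 in naive dura (-0.92, adjusted p = 0.00104). Clec9a, a receptor of cross-presenting dendritic cells, had 6.64, 6.79 and 6.44 after stroke, against 7.19, 7.54 and 7.29 in naive dura (-0.72, adjusted p = 0.0033). Both calls held under every alternative run. Siglech, a marker of plasmacytoid dendritic cells, fell by 0.62 (adjusted p = 0.00489), Mgl2 by 0.77 (adjusted p = 0.0101) and Clec10a by 0.88 (adjusted p = 0.0165). The Siglech call was lost with the covariates (-0.43, adjusted p = 0.0847), that of Mgl2 without stroke array 3 (0.0544) and that of Clec10a without naive array 2 (0.0738), stroke array 2 (0.0618) or stroke array 3 (0.06). Without wild-type stroke array 3 the list had 3 genes that fell. Ccr7, which guides dendritic cells to lymph nodes, rose by 0.37 (adjusted p = 0.0221), which missed the threshold without naive array 3 (0.111), stroke array 2 (0.0553) or stroke array 3 (0.0972) and with the covariates (0.173). Over 15 alternative runs the Ccr7 call was lost in 6 and that of Clec10a in 4. The mean level of the list was 7.93 to 8.02 in wild-type stroke arrays, against 8.08 to 8.21 in naive ones, so the groups did not overlap. In engrafted dura Cd209a was the 1 gene of the list that fell (-0.80, adjusted p = 0.0176), which missed the threshold without naive array 1 (0.0899), stroke array 2 (0.0817) or stroke array 3 (0.0533), and in deficient dura 0 passed.

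Of 12 B cell genes, 1 rose, 2 fell and 9 did not pass in wild-type dura, with a median of -0.16. Cd79a, a chain of the B cell receptor, had 6.94, 7.16 and 6.77 after stroke, against 7.94, 7.67 and 7.31 in naive dura (-0.68, adjusted p = 0.0355). Ebf1, a factor of early B cells, fell by 0.45 (adjusted p = 0.028), whereas Vpreb1, part of the pre-B cell receptor, rose by 0.35 (adjusted p = 0.00912). The Cd79a call was lost without stroke array 1 or 3 (adjusted p = 0.0789 and 0.127) or without the first or the second naive array (0.122 and 0.0911) and that of Ebf1 without naive array 2 or stroke array 3 (0.118 and 0.128). With the replicate number as a block Cd79a also missed the threshold (0.0564), whereas the Vpreb1 call held under every alternative run. Over 15 alternative runs the Cd79a call was lost in 9 and that of Ebf1 in 4. The mean level of the list was 7.36 to 7.55 in stroke arrays and 7.52 to 7.77 in naive arrays, which overlap. Of 13 macrophage genes, 3 rose and 0 fell, with a median of -0.04 beside 0.01 over all probe sets. The 3 were the integrin Itgam at 0.81 (adjusted p = 0.00117), Lyve1, a hyaluronan receptor, at 0.79 (adjusted p = 0.00379) and Cd68, a lysosomal protein, at 0.52 (adjusted p = 0.0475). The Cd68 call was lost without any 1 of 5 of the 6 arrays (0.0506 to 0.198), and with the covariates both Cd68 and Lyve1 missed the threshold (0.492 and 0.0858). Of 7 T cell genes 0 passed. Of 10 genes of a granulocyte precursor list, 2 rose, Chil3 3.02-fold (adjusted p = 0.0218) and Cd34 by 0.41 on the log2 scale (adjusted p = 0.00577). The other 8, among them Elane, Mpo, Prtn3 and Ctsg, did not pass. Mean levels of the list were 8.42 to 9.55 after stroke and 8.17 to 8.35 in naive dura. Of 9 mast cell genes 1 fell, Kit by 0.57 (adjusted p = 0.0217). The calls of Chil3 and Kit were each lost without any 1 of 3 arrays (adjusted p up to 0.0953 and 0.0967) and with the covariates. Over 15 alternative runs the calls of Cd68, Chil3 and Kit were lost in 10, 6 and 6. Among non-immune tissue markers, 4 of 9 neuron genes fell (Snap25, Syn1, Nefl and Gad1, at -0.40, -0.77, -1.34 and -0.94, adjusted p = 0.0435, 0.0271, 0.0401 and 0.0435), each lost without at least 3 of the 6 single arrays, with mean levels of 9.58 to 10.02 after stroke and 10.43 to 10.89 in naive dura. Choroid plexus genes spanned 8.43 to 12.04 after stroke and 11.52 to 11.61 in naive dura, with 0 of 10 passing. Of 9 dural fibroblast genes 1 rose and 2 fell. Fmod, a collagen-binding proteoglycan, had 11.49, 11.56 and 11.25 after stroke, against 12.74, 12.62 and 12.53 in naive dura (-1.19, adjusted p = 2.14e-06). Ogn, a proteoglycan of the same family, fell by 0.57 (adjusted p = 0.000163), while the matrix protein Mgp rose by 0.40 (adjusted p = 0.00157), a call lost with the covariates (0.0622). The Fmod and Ogn calls held under every alternative run. With the neuron and choroid plexus scores as covariates, 4 members were called in wild type, and H2-Aa stood at -1.0. The neuron score did not overlap between these groups, so this fit does not cleanly separate it from stroke. In bulk dura the cells that made each listed transcript were not identified. A changed list gene therefore does not by itself show a change of the cell type its list is named for. The part of the immune cell and fibroblast markers in the class II difference was not tested.

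**Figure D4:**
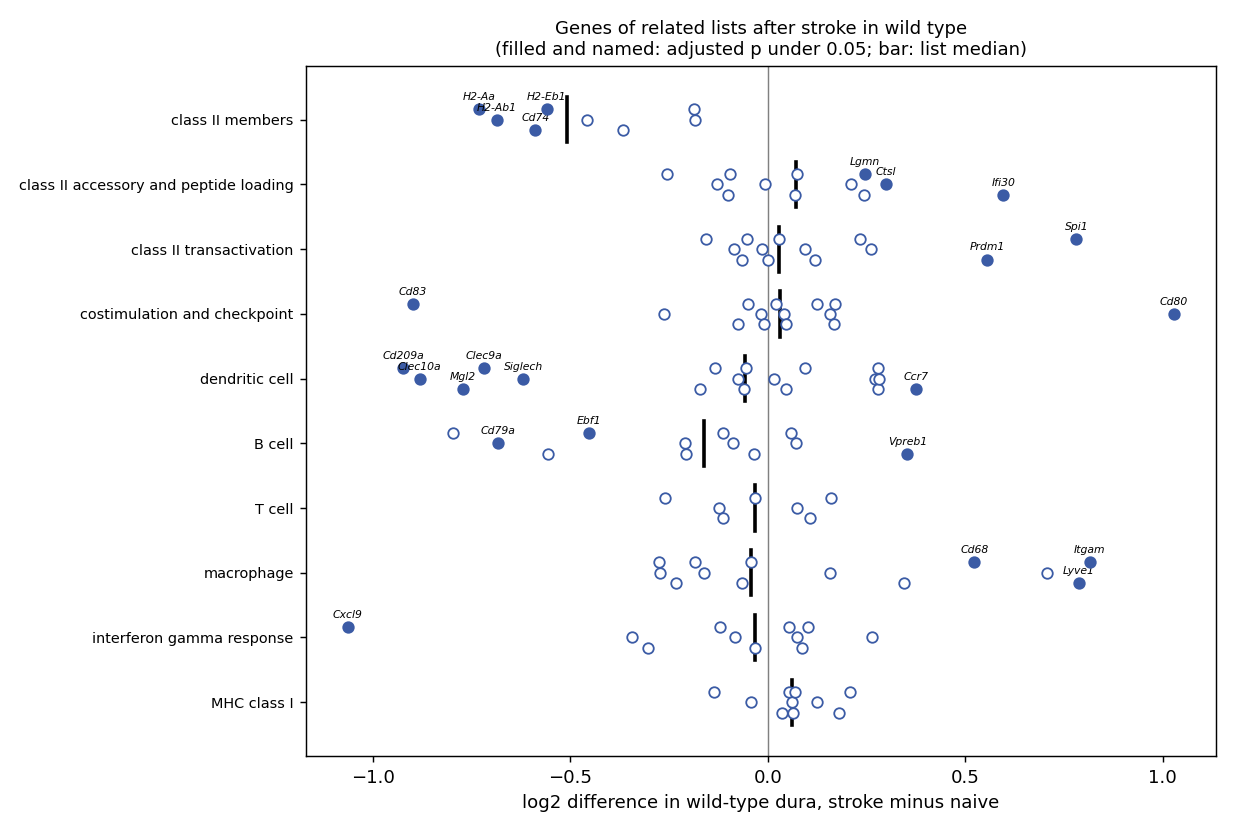
Log2 difference of stroke minus naive in wild-type dura (horizontal axis) for the measured genes of each list (rows); points are genes, filled and named where the adjusted p was under 0.05, and bars are list medians. The dendritic cell row runs from Ccr7 at 0.37 to Cd209a at -0.92, and Cd80 and Cd83 stand at 1.03 and -0.90.

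The same lists were set beside the higher chain levels of deficient than wild-type dura after stroke. Of 18 dendritic cell genes, 2 rose and 0 fell. Mgl2 had 9.22, 9.37 and 9.35 in deficient dura, against 8.66, 8.38 and 8.07 in wild-type dura (0.94, adjusted p = 0.00849). That call held without any single array and was lost without the 5 arrays lowest in Ttr (0.0842). Siglech had 7.92, 8.31 and 8.10 in deficient dura, against 7.69, 7.40 and 7.51 in wild-type dura (0.58, adjusted p = 0.0205), a call lost without wild-type stroke array 2 or 3 or deficient stroke array 2 or 3 (0.0746 to 0.116). It was also lost when the 5 low-Ttr arrays were dropped (0.267), in the fit to these 6 arrays alone (0.0932) and under the covariates (0.134). No array of deficient dura lay among the wild-type arrays for either gene. Among the 12 processing and loading genes 0 rose and 2 fell, beside 1.97% of all probe sets called lower, Ctsl by 0.34 (adjusted p = 0.0187) and Lgmn by 0.24 (adjusted p = 0.0403). Of 13 macrophage genes 0 rose and 2 fell, Itgam by 0.63 (adjusted p = 0.0187) and Lyve1 by 0.64 (adjusted p = 0.0361). These 4 falls were each lost without at least 3 of the 6 single arrays. Without the 5 arrays lowest in Ttr all 4 were lost too, with the highest adjusted p of any alternative run, 0.236 for Ctsl, 0.355 for Lgmn, 0.154 for Itgam and 0.327 for Lyve1. The class II transactivation list had 0 of 13 passing, the costimulation and checkpoint list 0 of 14, and B cell genes 0 of 12. Cxcl9 was 1.00 higher and just missed the threshold (adjusted p = 0.0518). Of 9 dural fibroblast genes 2 rose and 0 fell, beside the same 0.642% called higher. Fmod had 12.25, 12.45 and 12.35 in deficient dura, against 11.49, 11.56 and 11.25 in wild-type dura (0.91, adjusted p = 6.13e-05), a call that held under every alternative run. Ogn was 0.31 higher (adjusted p = 0.0382), a call lost without any single 1 of the 6 arrays (0.0538 to 0.16) and in other alternatives (up to 0.285). Their part in the chain difference was not tested. In the mast cell list, which marks the genotype, 4 of 9 fell (Cpa3, Mcpt2, Mcpt4 and Tpsb2, adjusted p = 0.000182, 3.68e-05, 0.00154 and 0.00879), and the Tpsb2 call was lost when the 5 low-Ttr arrays were dropped (0.0773). Mean neuron levels were 10.05 to 10.69 in deficient stroke arrays and 9.58 to 10.02 in wild-type stroke arrays. With the neuron and choroid plexus scores as covariates 3 members passed. Since the neuron levels did not overlap, that fit does not cleanly separate them from category.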

How the data were processed

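Total RNA from the dura of each mouse was labelled and hybridised to an Affymetrix gene-level array; dura were not pooled, per the labels' protocols. The deposited values are on a log2 scale, with 1 value for each probe set and array. The submitters' processing notes list RMA, affy and R (3.0.0) without saying what each was used for. No batch or scan date is given in the sources used here, so none could be tested. The values were used as deposited, with no rescaling and no filter.

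Of 34760 probe sets, 1321 with several gene symbols and 11799 with none were left out. Group means were estimated from the 18 arrays together in limma (version 3.58.1, under R 4.3.3), with 12 residual and 3.41 prior degrees of freedom. Benjamini and Hochberg adjustment ran over 21640 probe sets within each of 13 comparisons, at a threshold of 0.05 with no minimum change. Intervals are 95% and unadjusted. The procedure was tested on simulated arrays with independent noise for each probe set, so effects shared by an array or its tissue composition were not covered. That test set no requirement on recovering changes smaller than a doubling. With 3 arrays per group, the number of arrays limits the precision. Replicate numbers were not treated as pairing the mice. Over 45 same-numbered pairs from different groups, deviations from group means correlated with r of -0.61 to 0.60, and 11 pairs were over 0.1. Differently numbered pairs were not compared, so these values cannot decide whether same-numbered mice were handled together.

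The members, lists, comparisons and alternatives were chosen with earlier results of these data known. All 8 members are named in every comparison where they bear on it, and from each list described in a comparison the genes past the threshold, at most 4 with the smallest p, or otherwise up to 2. Lists with none past it are mostly given by their counts alone. Clec10a and Ccr7 among the dendritic cell genes, and Rfx5, fall outside this rule; their values were known when they were chosen. The most alike genes are the 8 with the highest r. List genes without a probe set of 1 symbol, among them H2-DMb1 and H2-DMb2, were not analysed here. Alternatives are leaving out each array, a replicate block, only the compared groups, weights for arrays, repeated quantile normalization, a variance trend with robust moderation, all probe sets, a filter on dim probe sets, choroid plexus and neuron covariates, and leaving out the 5 arrays lowest in Ttr. Tables and figures used Python 3.11.15, pandas 2.3.3 and matplotlib 3.10.9.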

Additional observations from a re-analysis of the deposited data

How the results depend on the processing

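The number of members called was 4 for stroke in wild type, 4 for stroke averaged over categories and 3 for deficient against wild type after stroke, and 0 in the other 10 comparisons, where it stayed 0 in every alternative run. Leaving out 1 array at a time gave 2 to 4, 4 to 5 and 0 to 3. Without the 5 arrays lowest in Ttr the counts were 3, 0 and 0, in a fit that leaves naive deficient dura with 1 array, assumed to vary like the other groups. With only the compared groups they were 5 for stroke in wild type and 1 for deficient against wild type after stroke; this alternative has no form for the average. The fit with the replicate number as a block gave 4, 4 and 3, so it changed none of these counts. The mean of a gene's probe sets was not run, since each member has 1. Signs turned for some small differences of members, none of which passed. After stroke in deficient dura, array weights gave H2-DMa -0.068 and Flt3 0.057, and without the 5 low-Ttr arrays H2-Aa was 0.10, H2-Ab1 0.078, H2-Eb1 0.12, Cd74 0.11 and Cd86 0.028. Leaving out 1 array there gave H2-DMa -0.019 to 0.12, Ciita -0.050 to 0.17, H2-Eb1 -0.21 to 0.033 and Flt3 -0.12 to 0.042. In engrafted dura Cd86 was 0.0048 with array weights, 0.070 without low-Ttr arrays and -0.17 to 0.070 leaving out 1 array. Flt3 in engrafted against wild-type stroke dura was 0.056 with the covariates and -0.057 to 0.0024 leaving out 1 array. Nefl, itself part of the neuron score, was 0.060 after stroke in wild type with the covariates, where it had passed as lower without them. Over all probe sets, calls for stroke in wild type numbered 2352, against 1394 with the covariates, 1368 without low-Ttr arrays, 1440 with only these groups and as few as 1371 without 1 array. For deficient against wild type after stroke, 565 became 1743 with array weights, 95 without low-Ttr arrays and 222 with only these groups. The cause of these shifts was not tested.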
